A study of Mus musculus with 8 samples.

Results

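The Serpina1 and Serpina3 protease inhibitors were followed in mouse liver RNA under a western diet, under CCl4 and under both. They were chosen by name as 10 genes (Serpina1a, Serpina1b, Serpina1c, Serpina1d, Serpina1e, Serpina3c, Serpina3g, Serpina3k, Serpina3m and Serpina3n) of the 55487 genes in the deposited table. All 8 libraries were made from liver of male wild-type C57BL/6N mice. Western diet + CCl4 had 1 library, western diet + oil 2, normal diet + CCl4 2 and normal diet + oil 3. The western diet joined a high-fat chow to drinking water with 23.1 g/L fructose and 18.9 g/L glucose, and the normal diet was standard chow with tap water. CCl4, a toxin that hepatocytes turn into a reactive radical, was injected weekly into the peritoneum, and corn oil was injected in the other mice. The CCl4 dose, the feeding time and the animals' age are not given in the sources used here. The labels do not say that each library is a separate animal, so the spread behind the p-values, taken between libraries, may be technical. Because western diet + CCl4 is 1 library, its tests assume that it varies like the others.

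Serpins inhibit proteases by offering an exposed reactive-centre loop as bait, and the protease is trapped when it cuts the loop. In humans SERPINA1, or alpha-1-antitrypsin, is made by hepatocytes, circulates in plasma and protects tissue from neutrophil elastase. Mice carry several near-identical copies of it and a larger, more diverged group of Serpina3 genes, related to human alpha-1-antichymotrypsin. Of these, Serpina3k is contrapsin, a trypsin inhibitor of plasma. Serpina3n is an acute-phase protein that inhibits leukocyte elastase, cathepsin G and granzyme B. Serpina3g, also called Spi2A, acts inside cells on cysteine cathepsins, and Serpina3c is a kallikrein-binding protein.

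All 10 genes lie on chromosome 12 within 686.174 kb (GRCm38, GENCODE M21 annotation). The Serpina1 genes occupy chr12:103728156-103958975 and all run on the minus strand, and the Serpina3 genes occupy chr12:104146382-104414329. Coding sequences of the Serpina1 copies were 96.29% to 98.47% identical in the 10 pairs (median 96.57%). The 10 Serpina3 pairs ranged from 80.37% to 91.67% (median 84.71%), and the 25 pairs between the subfamilies from 56.86% to 59.24%. The coding sequence used for Serpina3g had only 744 bases, so its pairs compare 636 to 648 aligned bases, against 1215 to 1254 for the others. The lowest value, 80.37%, is Serpina3g with Serpina3k. Among Serpina3 pairs without Serpina3g the lowest was 82.93%. Across the 1239 coding positions shared by the 5 Serpina1 copies, 86 (6.94%) differed between copies. The 60-base window with the most differences held 18 (30% of its bases), against a median of 4 over all 1180 windows. It lies near the 3′ end of the coding sequence, where serpins encode the reactive-centre loop. It is shown for all 5 copies because it is where the copies are easiest to tell apart, with capitals at the positions that differ. Each line is the minus strand (GRCm38), at coding bases 1170 to 1229 for Serpina1a and 1101 to 1160 for the others.
Serpina1a, chr12:103853757-103853816: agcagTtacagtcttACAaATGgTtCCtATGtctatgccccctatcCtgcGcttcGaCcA
Serpina1b, chr12:103728324-103728383: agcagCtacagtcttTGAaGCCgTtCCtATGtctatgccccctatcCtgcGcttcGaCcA
Serpina1c, chr12:103895094-103895153: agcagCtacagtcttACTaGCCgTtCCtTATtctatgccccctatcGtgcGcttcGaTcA
Serpina1d, chr12:103763762-103763821: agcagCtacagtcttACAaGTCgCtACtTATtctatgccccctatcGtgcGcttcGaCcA
Serpina1e, chr12:103947100-103947159: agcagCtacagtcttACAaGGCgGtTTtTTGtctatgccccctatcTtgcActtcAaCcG

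**Figure D1:**
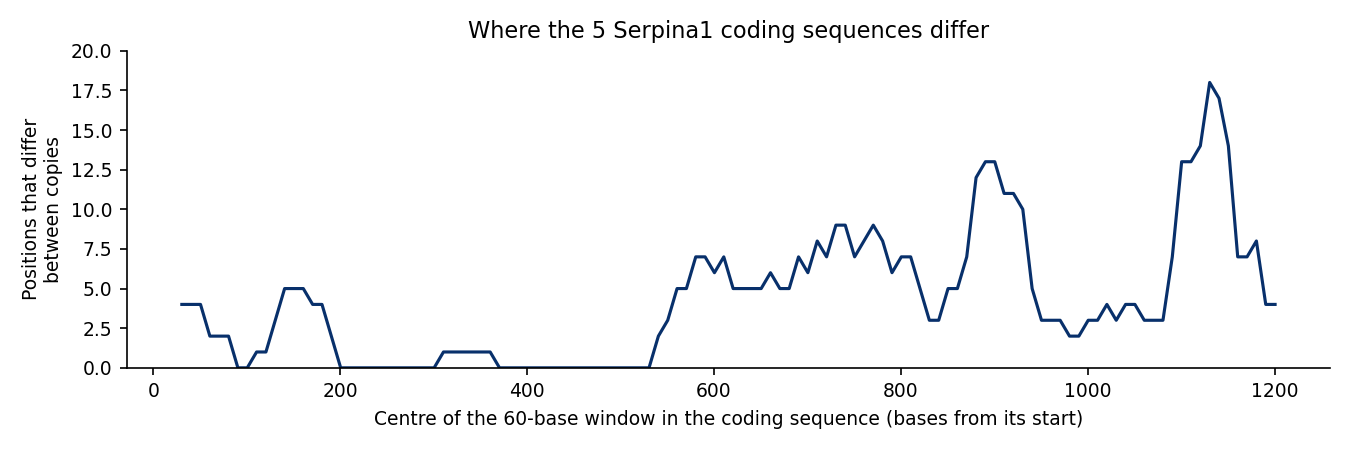
Number of positions that differ between the 5 Serpina1 coding sequences in sliding 60-base windows (vertical axis), against the centre of the window in bases from the start of the shared coding sequence (horizontal axis). Counts range from 0 to 18, and the highest peak is the window whose sequence is printed for the 5 copies.

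This likeness bears on how well single copies can be counted. Of all 100-base windows of coding sequence, the share found in no other gene's annotated transcripts was 80.88% for Serpina1e, 70% for Serpina1b and 66.67% for Serpina1d. It was 39.04% for Serpina1a and 38.16% for Serpina1c, which share 699 to 703 windows with each other. For the Serpina3 genes it was 91.77% to 100%. The sources used here do not give how fragments matching several copies were assigned, so values of Serpina1a and Serpina1c in particular are uncertain as single genes. The annotated Serpina1b gene (chr12:103728156-103830373) also contains Serpina1d (chr12:103763594-103773592), and Serpina3m (chr12:104338486-104394257) overlaps Serpina3k (chr12:104338486-104346144) on the same strand. Sums over each subfamily are therefore given beside the single genes.

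Values are FPKM, fragments scaled to transcript length and to the mapped fragments of the library, as the authors deposited them. Counts were not analysed here, so depth is unknown and no counting error is given. Deposited values summed to between 514832 and 612747 FPKM per library, and 12531 to 14843 genes stood above 0. The Mup genes, which encode the major urinary proteins of male mouse liver, took 8.22% of the sum with western diet + CCl4, 9.16% and 10.04% with western diet + oil, 2.80% and 4.65% in the normal diet + CCl4 libraries, and 16.9%, 22.1% and 32.5% with normal diet + oil. FPKM are shares of a library. Over all tested genes the median log2 fold change relative to normal diet + oil was 0.19 for western diet + CCl4, 0.22 for western diet + oil and 0.26 for normal diet + CCl4. Median-of-ratios scaling brought these medians to 0.0078, 0.0027 and 0.0026. Hepatocyte markers (Alb, Ttr, Apoa1, Apob, Trf, Ahsg and Cps1) summed to between 35403 and 62964 FPKM in the 8 libraries, and the 4 pancreas markers were listed at 0 in all of them.

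Serpina1e carried most of the variation in the Serpina1 group. Its level was 2128 FPKM with western diet + CCl4, 1110 and 913 FPKM with western diet + oil, 3942 and 3125 FPKM with normal diet + CCl4, and 7100, 5967 and 10575 FPKM with normal diet + oil. No library of any other group reached the lowest normal diet + oil library, and the western diet + oil libraries were the lowest of all. The group means were 1011 ± 139 FPKM with western diet + oil (SD, n = 2), 3533 ± 578 FPKM with normal diet + CCl4 (SD, n = 2) and 7881 ± 2401 FPKM with normal diet + oil (SD, n = 3). Over the 8 libraries its highest value was 11.6 times its lowest, against 1.27 times for Serpina1b, 1.54 for Serpina1a, 1.66 for Serpina1d and 1.80 for Serpina1c.

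**Figure D2:**
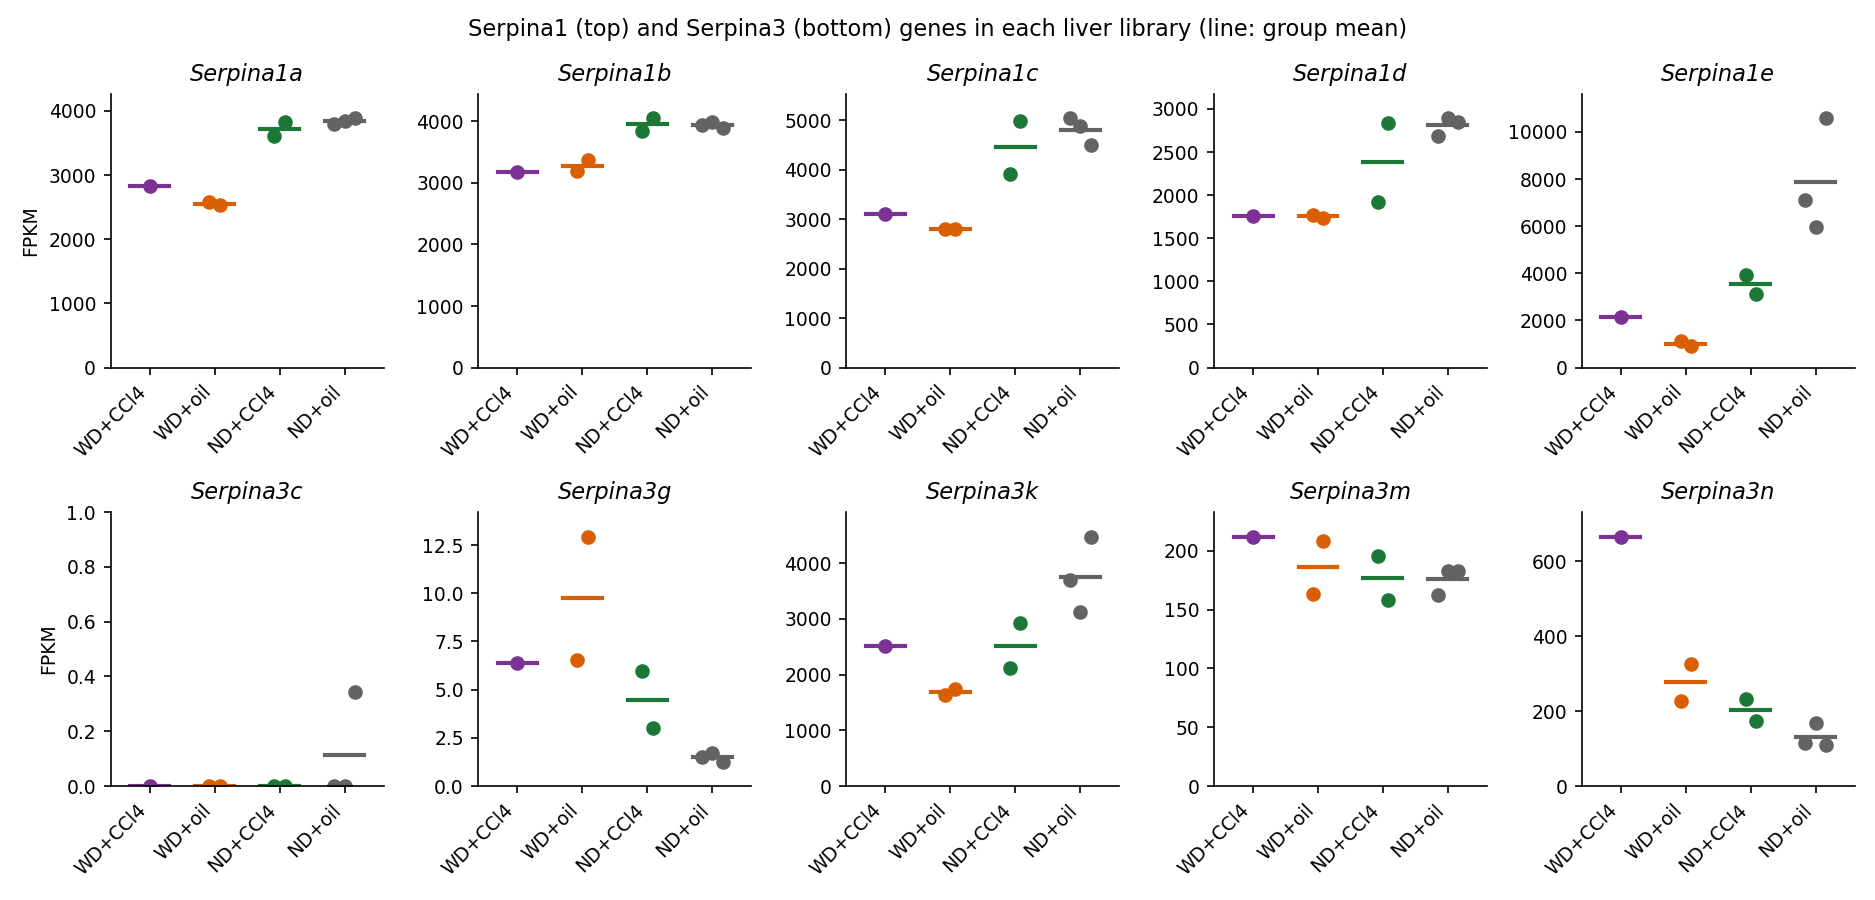
FPKM of each of the 10 genes (vertical axis, from 0, a scale for each panel) in every library of western diet + CCl4 (WD+CCl4, n = 1), western diet + oil (WD+oil, n = 2), normal diet + CCl4 (ND+CCl4, n = 2) and normal diet + oil (ND+oil, n = 3). Points are libraries and lines are group means. Serpina1e spans 913 to 10575 FPKM, Serpina3n is highest in the western diet + CCl4 library at 665 FPKM, and Serpina3c is listed at 0 in 7 of 8 libraries.

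Differences were tested with limma on log2(FPKM + 1) over all 11514 genes with at least 1 FPKM in at least 2 libraries, in 1 fit of the 8 libraries. A gene rose or fell where the two-sided p, adjusted over all tested genes by the Benjamini-Hochberg method, was below 0.05. Of the 10 genes, 9 were tested, and Serpina3c did not pass the filter. The comparisons against normal diet + oil share those 3 libraries, so they are not independent of each other. With western diet + oil against normal diet + oil, 508 of all tested genes passed (4.41%), with 3.81% higher and 0.599% lower. Of the 9 tested inhibitors, 3 passed: Serpina1e and Serpina3k fell and Serpina3g rose. Serpina1e differed by -2.92 ± 0.28 on the log2(FPKM + 1) scale (SE, limma adjusted p = 0.00713), a fold of 0.132. That call was lost when western diet + oil library 1 (adjusted p = 0.0666) or library 2 (adjusted p = 0.117) was left out, with log2 fold changes of -3.06 and -2.78 in those fits.

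The other 4 Serpina1 copies lay lower with western diet + oil but did not pass. Serpina1c had 2795 and 2811 FPKM with western diet + oil, against 5039, 4891 and 4494 FPKM with normal diet + oil (log2 fold change -0.78 ± 0.20, limma adjusted p = 0.0728). It passed when normal diet + CCl4 library 1 (adjusted p = 0.0481) or library 2 (adjusted p = 0.0493) was left out. Serpina1a had 2579 and 2526 FPKM with western diet + oil, against 3798, 3834 and 3882 FPKM with normal diet + oil (-0.59 ± 0.18, limma adjusted p = 0.110). Each of these groups was tight, and the libraries of the 2 groups did not overlap for either gene. Serpina1d had 1770 and 1737 FPKM with western diet + oil, against 2684, 2891 and 2854 FPKM with normal diet + oil (-0.68 ± 0.22, limma adjusted p = 0.124). Serpina1b, the steadiest copy, had 3197 and 3371 FPKM with western diet + oil, against 3941, 3995 and 3889 FPKM with normal diet + oil (-0.26 ± 0.19, 95% interval -0.69 to 0.16, limma adjusted p = 0.434). All 5 copies thus had both western diet + oil libraries below every normal diet + oil library, a pattern that 5.18% of all tested genes showed. At an unadjusted p below 0.05, 4 of the 5 copies differed, against 23.3% of all tested genes. The median log2 fold change of the 5 copies was -0.68, against 0.22 over all tested genes, and all 5 stayed below 0 under every scaling tried. As near-identical copies that may share fragments in the counting, the 5 are not independent of each other.

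With normal diet + CCl4 against normal diet + oil, no Serpina1 copy passed (limma), and 1 of 5 had an unadjusted p below 0.05, against 22.8% of all tested genes. Among all tested genes 164 passed (1.42%). That copy was Serpina1e (log2 fold change -1.12 ± 0.28, limma adjusted p = 0.109), the only copy with both libraries below every normal diet + oil library, as 3.80% of all tested genes had. Serpina1c had 3919 and 4987 FPKM with normal diet + CCl4, against 5039, 4891 and 4494 FPKM with normal diet + oil, and Serpina1d had 1920 and 2840 FPKM with normal diet + CCl4, against 2684, 2891 and 2854 FPKM with normal diet + oil. In both genes normal diet + CCl4 library 2 lay within the range of normal diet + oil and library 1 below it. Serpina1a, at 3603 and 3828 FPKM with normal diet + CCl4, and Serpina1b, at 3853 and 4050 FPKM there, had log2 fold changes of -0.05 and 0.00. Their 95% intervals were -0.47 to 0.38 and -0.43 to 0.43. Serpina1a, Serpina1b and Serpina1c changed direction with the scaling, and Serpina1d and Serpina1e lay below 0 under each: 4 of the 5 copies lay below 0 as deposited, 2 after rescaling to a common sum and 5 under median-of-ratios scaling or without the Mup family. All 5 lay below the median of all tested genes under each of these.

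In the western diet + CCl4 library the copies stood near their western diet + oil levels, apart from Serpina1e. Serpina1a had 2836 FPKM, Serpina1b 3179 FPKM, Serpina1c 3107 FPKM and Serpina1d 1760 FPKM there. All 5 lay below every normal diet + oil library (13.4% of all tested genes did so), and none passed against normal diet + oil, where 107 of all tested genes did (0.929%). At an unadjusted p below 0.05, 3 of the 5 copies differed, against 15.3% of all tested genes. Serpina1e came closest, at -1.85 ± 0.36 (limma adjusted p = 0.0708), and it passed when normal diet + CCl4 library 1 (adjusted p = 0.0459) or library 2 (adjusted p = 0.0452) was left out. Against western diet + oil, Serpina1e in the western diet + CCl4 library was 1.08 ± 0.38 higher on the log2 scale without passing (limma adjusted p = 0.986), where 0.0434% of all tested genes passed. It was the 1 copy with an unadjusted p below 0.05 there, as had 4.19% of all tested genes, and against normal diet + CCl4 no copy had one.

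**Figure D3:**
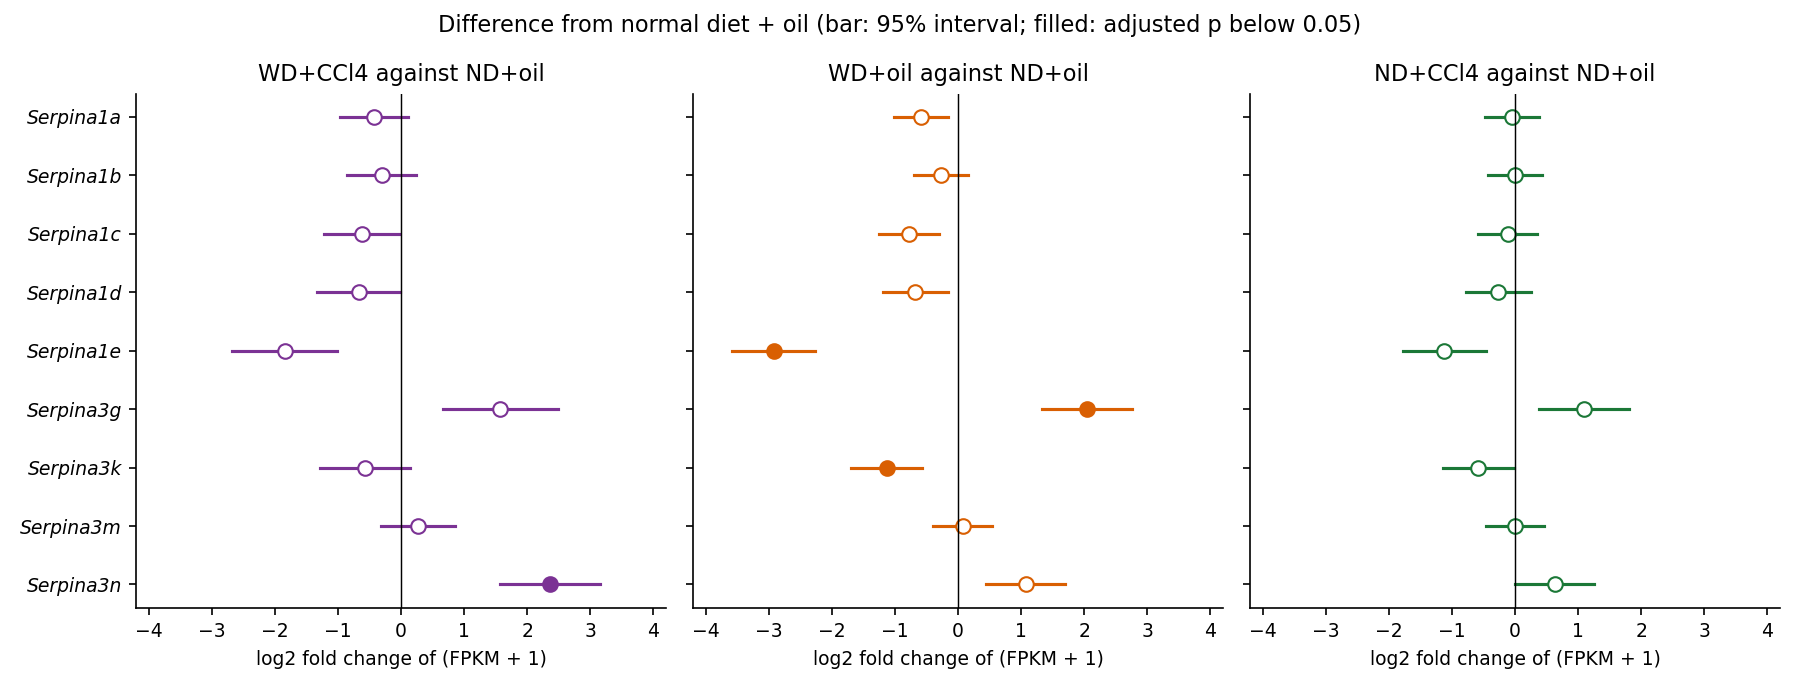
Log2 fold change of (FPKM + 1) against normal diet + oil (horizontal axis) for the 9 tested genes (vertical axis) with western diet + CCl4, western diet + oil and normal diet + CCl4. Points are limma estimates, bars their 95% intervals, and filled points have an adjusted p below 0.05. The filled points are Serpina3n at 2.36 with western diet + CCl4, and Serpina1e at -2.92, Serpina3k at -1.14 and Serpina3g at 2.05 with western diet + oil.

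Serpina3k, the most abundant Serpina3 gene in every library, fell with western diet + oil. It had 1639 and 1744 FPKM there, against 3689, 3118 and 4469 FPKM with normal diet + oil (log2 fold change -1.14 ± 0.24, limma adjusted p = 0.0450). Both western diet + oil libraries were below all others. The call was close to the threshold and was lost without any single western diet + oil or normal diet + oil library (adjusted p = 0.0847 to 0.309 over these 5 fits), with a pseudocount of 0.1 (adjusted p = 0.0563) and with median-of-ratios scaling (adjusted p = 0.0609). The western diet + CCl4 library had 2508 FPKM (-0.57 ± 0.31 against normal diet + oil, limma adjusted p = 0.433). Normal diet + CCl4 had 2112 and 2929 FPKM, both below the lowest normal diet + oil library (-0.58 ± 0.24, limma adjusted p = 0.212).

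Serpina3n rose in the western diet + CCl4 library. Its level there was 665 FPKM, against 115, 168 and 111 FPKM with normal diet + oil, and the log2 fold change was 2.36 ± 0.34 (limma adjusted p = 0.0287), a fold of 5.13. The call was lost without western diet + oil library 1 (adjusted p = 0.0646) or 2 (adjusted p = 0.0657) without normal diet + oil library 1 (adjusted p = 0.0729) or 3 (adjusted p = 0.0617), and with only the 2 groups in the fit (adjusted p = 0.0791). Western diet + oil had 226 and 327 FPKM (1.07 ± 0.27 against normal diet + oil, limma adjusted p = 0.0663) and normal diet + CCl4 had 232 and 172 FPKM (0.63 ± 0.27, limma adjusted p = 0.218). Every library of these 2 groups lay above every normal diet + oil library, normal diet + CCl4 library 2 only just. The western diet + CCl4 library was also above each western diet + oil library (1.29 ± 0.37, limma adjusted p = 0.729) and each normal diet + CCl4 library (1.73 ± 0.37, limma adjusted p = 0.155) without passing. Against normal diet + CCl4, where 0.261% of all tested genes passed, it was the 1 inhibitor with an unadjusted p below 0.05, as had 7.10% of all tested genes.

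Neutrophil markers (S100a8, S100a9, Ly6g, Mpo, Elane, Ngp, Camp and Retnlg) were high in that same library. They summed to 486 FPKM with western diet + CCl4, 20.8 and 44.2 FPKM with western diet + oil, 6.32 and 4.22 FPKM with normal diet + CCl4, and 4.35, 9.02 and 1.77 FPKM with normal diet + oil. Of the 6 tested markers, relative to normal diet + oil 5 rose with western diet + CCl4, where 0.929% of all tested genes passed in either direction. None of the 8 was at 0 in every library. Acute phase genes such as serum amyloids and fibrinogens, which the liver makes in inflammation, had higher values there without passing. Of 21 such genes, 20 had a log2 fold change above 0 with western diet + CCl4 against normal diet + oil, with a median of 1.28 against 0.19 over all tested genes, and 19 had an unadjusted p below 0.05 against 15.3% of all tested genes. None of the 21 passed after adjustment (limma). The part of either in the level of Serpina3n was not tested, and in bulk tissue a change in the number of cells of a type cannot be told apart from a change in RNA per cell.

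Serpina3g was a low-level gene that rose with western diet + oil. It had 6.54 and 12.9 FPKM there, against 1.50, 1.71 and 1.26 FPKM with normal diet + oil (log2 fold change 2.05 ± 0.31, limma adjusted p = 0.0201). The call was lost without any single library of either group (adjusted p = 0.0575 to 0.201 over these 5 fits). In the western diet + CCl4 library it had 6.40 FPKM (1.58 ± 0.39 against normal diet + oil, limma adjusted p = 0.123). Normal diet + CCl4 had 5.98 and 3.00 FPKM (1.09 ± 0.31, limma adjusted p = 0.126), and this passed without normal diet + CCl4 library 2 (adjusted p = 0.0401). All 5 libraries outside normal diet + oil exceeded the 3 within it. Among all tested genes 51.5% stood clear above normal diet + oil with western diet + CCl4, 40.7% with western diet + oil and 41.8% in the normal diet + CCl4 libraries.

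Markers of Kupffer cells and macrophages (Clec4f, Vsig4, Timd4, Marco, Cd5l, Adgre1 and C1qa) were, like Serpina3g, higher with western diet + oil. They summed to 267 FPKM with western diet + CCl4, 355 and 697 FPKM with western diet + oil, 222 and 91.5 FPKM with normal diet + CCl4, and 50.2, 76.5 and 93.0 FPKM with normal diet + oil. All 7 rose with western diet + oil against normal diet + oil, as did 3.81% of all tested genes, with a median log2 fold change of 2.43, and none was at 0 in every library. Markers of other cells were higher in that comparison too: 3 of 4 endothelial markers rose (median 1.18), 3 of 5 erythroid (median 1.43), 1 of 6 stellate cell and 1 of 6 neutrophil markers. Outside western diet + oil none of the 7 macrophage markers passed against normal diet + oil (limma). With western diet + CCl4, where 0.929% of all tested genes passed, 6 had a log2 fold change above 0 and 1 below. With normal diet + CCl4, where 1.42% passed, 5 lay above 0 and 2 below. Within western diet + oil and within normal diet + CCl4 the library with more of these 7 markers also had more Serpina3g. Within normal diet + oil the order differed. That match rests on few libraries and was not particular to macrophages. Summed neutrophil, stellate cell, endothelial, cholangiocyte and T and NK cell markers showed it in both groups too. Summed hepatocyte, B and plasma cell and erythroid markers did not show it in both. Markers of T and NK cells summed to at most 3.40 FPKM in any library, with Cd3d and Klrb1c at 0 in all. The part of macrophages or of these other cells in the level of Serpina3g was not tested.

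Serpina3m varied least of the tested Serpina3 genes, its highest value being 1.34 times its lowest. It had 212 FPKM with western diet + CCl4, 163 and 209 FPKM with western diet + oil, 196 and 158 FPKM with normal diet + CCl4, and 162, 183 and 183 FPKM with normal diet + oil. Its log2 fold change with western diet + oil against normal diet + oil was 0.07 ± 0.20 (95% interval -0.39 to 0.54, limma adjusted p = 0.863), below 0 under median-of-ratios scaling and without the Mup family. Serpina3c was listed at 0 in every library except normal diet + oil library 3, at 0.343 FPKM, where the lowest values above 0 in any library were 0.252 to 0.318 FPKM.

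The subfamilies differed in how their members lined up. How fragments matching several of the near-identical Serpina1 copies were assigned is not given. Those 5 copies therefore cannot be taken as 5 separate observations. Both western diet + oil libraries were below all normal diet + oil libraries for 5 of 5 Serpina1 copies. Of the 4 tested Serpina3 genes Serpina3k was lower, Serpina3g and Serpina3n were higher and Serpina3m overlapped. Among all tested genes 5.18% stood clear below normal diet + oil in this comparison and 40.7% clear above it. The 2 of 4 Serpina3 genes that were higher are thus near the general share. Of the 4 Serpina3 genes, 3 had an unadjusted p below 0.05 with western diet + oil, against 23.3% of all tested genes. With normal diet + CCl4, 0 of 4 Serpina3 genes passed (limma), and 3 of 4 had an unadjusted p below 0.05 against 22.8% of all tested genes. Median log2 fold changes over the 4 were 0.92 with western diet + CCl4, 0.57 with western diet + oil and 0.32 in the normal diet + CCl4 libraries. Over all tested genes the medians were 0.19, 0.22 and 0.26. Each Serpina3 median pools genes that lay on either side of 0. The Serpina3 median with normal diet + CCl4 became -0.01 under median-of-ratios scaling.

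Summed over copies, Serpina1 stood at 13011 FPKM with western diet + CCl4, 11450 and 11359 FPKM with western diet + oil, 17237 and 18829 FPKM with normal diet + CCl4, and 22562, 21578 and 25695 FPKM with normal diet + oil. The group means were 11405 ± 64.8 FPKM with western diet + oil (SD, n = 2), 18033 ± 1126 FPKM with normal diet + CCl4 (SD, n = 2) and 23278 ± 2150 FPKM with normal diet + oil (SD, n = 3). The groups did not overlap in this sum. Without Serpina1e the sums were 10883 FPKM with western diet + CCl4, 10341 and 10445 FPKM with western diet + oil, 13295 and 15705 FPKM with normal diet + CCl4, and 15462, 15611 and 15121 FPKM with normal diet + oil. The western diet libraries then remained apart, and the normal diet + CCl4 libraries lay on either side of normal diet + oil.

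The Serpina3 sum, which is mostly Serpina3k, was 3391 FPKM with western diet + CCl4, 2035 and 2293 FPKM with western diet + oil, 2545 and 3262 FPKM with normal diet + CCl4, and 3967, 3470 and 4765 FPKM with normal diet + oil. Here the western diet + CCl4 library was above both western diet + oil libraries and just below normal diet + oil. After rescaling to a common sum it had 3464 FPKM, within the 3336 to 4393 FPKM of normal diet + oil. Normal diet + CCl4 library 2 (3450 FPKM) then also lay within that range. The ratio of the Serpina1 sum to the Serpina3 sum was 3.84 with western diet + CCl4, 5.63 and 4.95 with western diet + oil, 6.77 and 5.77 in the normal diet + CCl4 libraries, and 5.69, 6.22 and 5.39 with normal diet + oil. The western diet + CCl4 library had the lowest ratio, and both other groups overlapped with normal diet + oil. Together the 10 genes held 2.97% of all FPKM with western diet + CCl4, 2.49% and 2.38% with western diet + oil, 3.84% and 4.14% in the normal diet + CCl4 libraries, and 4.42%, 4.26% and 4.97% with normal diet + oil.

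**Figure D4:**
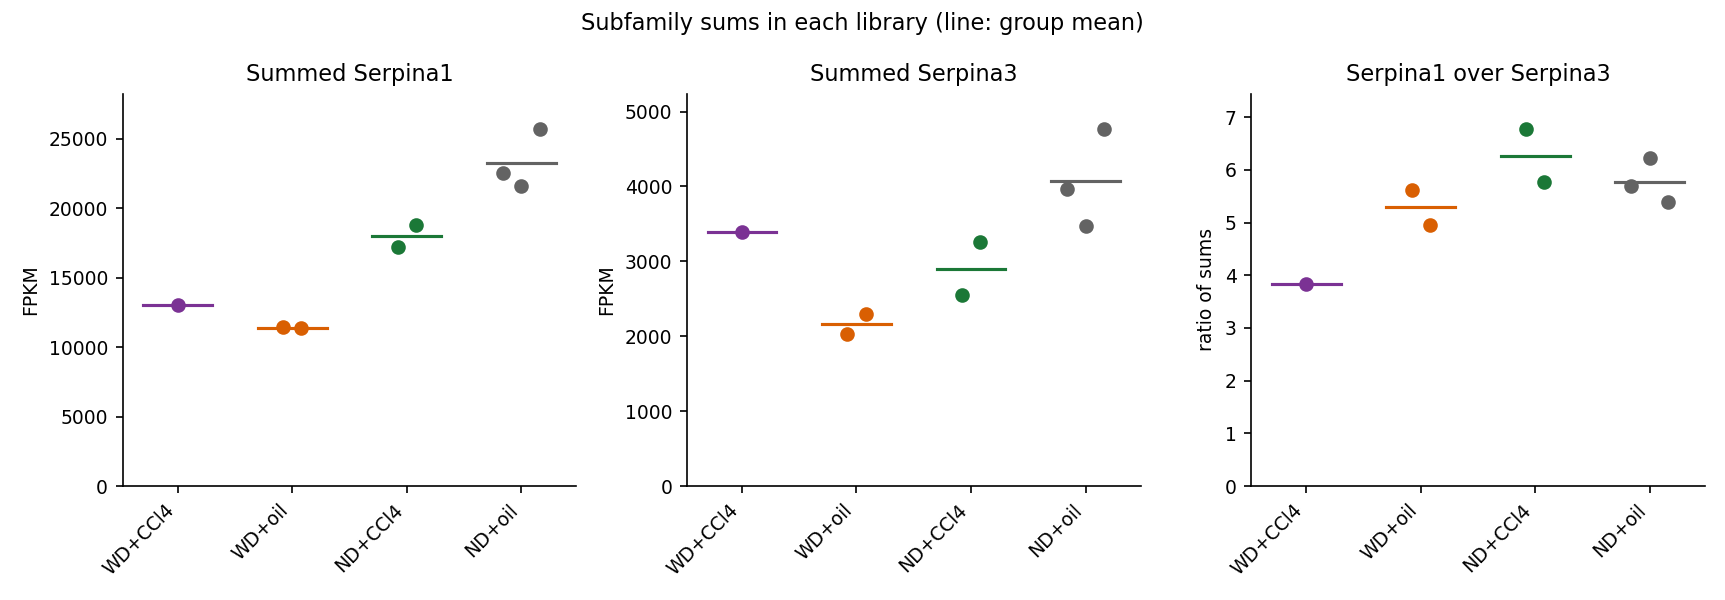
Summed FPKM of the 5 Serpina1 genes, summed FPKM of the 5 Serpina3 genes and the ratio of the sums (vertical axes, from 0) in each library of the 4 groups, from western diet + CCl4 (WD+CCl4) to normal diet + oil (ND+oil). Points are libraries and lines are group means. The Serpina1 sums lie between 11359 and 13011 FPKM on the western diet and between 21578 and 25695 FPKM with normal diet + oil.

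The make-up of each subfamily also shifted. Serpina1e supplied 16.4% of the Serpina1 sum with western diet + CCl4, 9.69% and 8.04% with western diet + oil, 22.9% and 16.6% in the normal diet + CCl4 libraries, and 31.5%, 27.7% and 41.2% with normal diet + oil. It was the highest of the 10 genes in mean level with normal diet + oil and the sixth with western diet + oil, where Serpina1b was highest. Such shares do not depend on the scaling between libraries, but they do depend on how fragments common to several copies were assigned. Serpina3n supplied 19.6% of the Serpina3 sum with western diet + CCl4, 11.1% and 14.2% with western diet + oil, 9.12% and 5.28% in the normal diet + CCl4 libraries, and 2.90%, 4.83% and 2.33% with normal diet + oil. Every library outside normal diet + oil was above those within it.

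**Figure D5:**
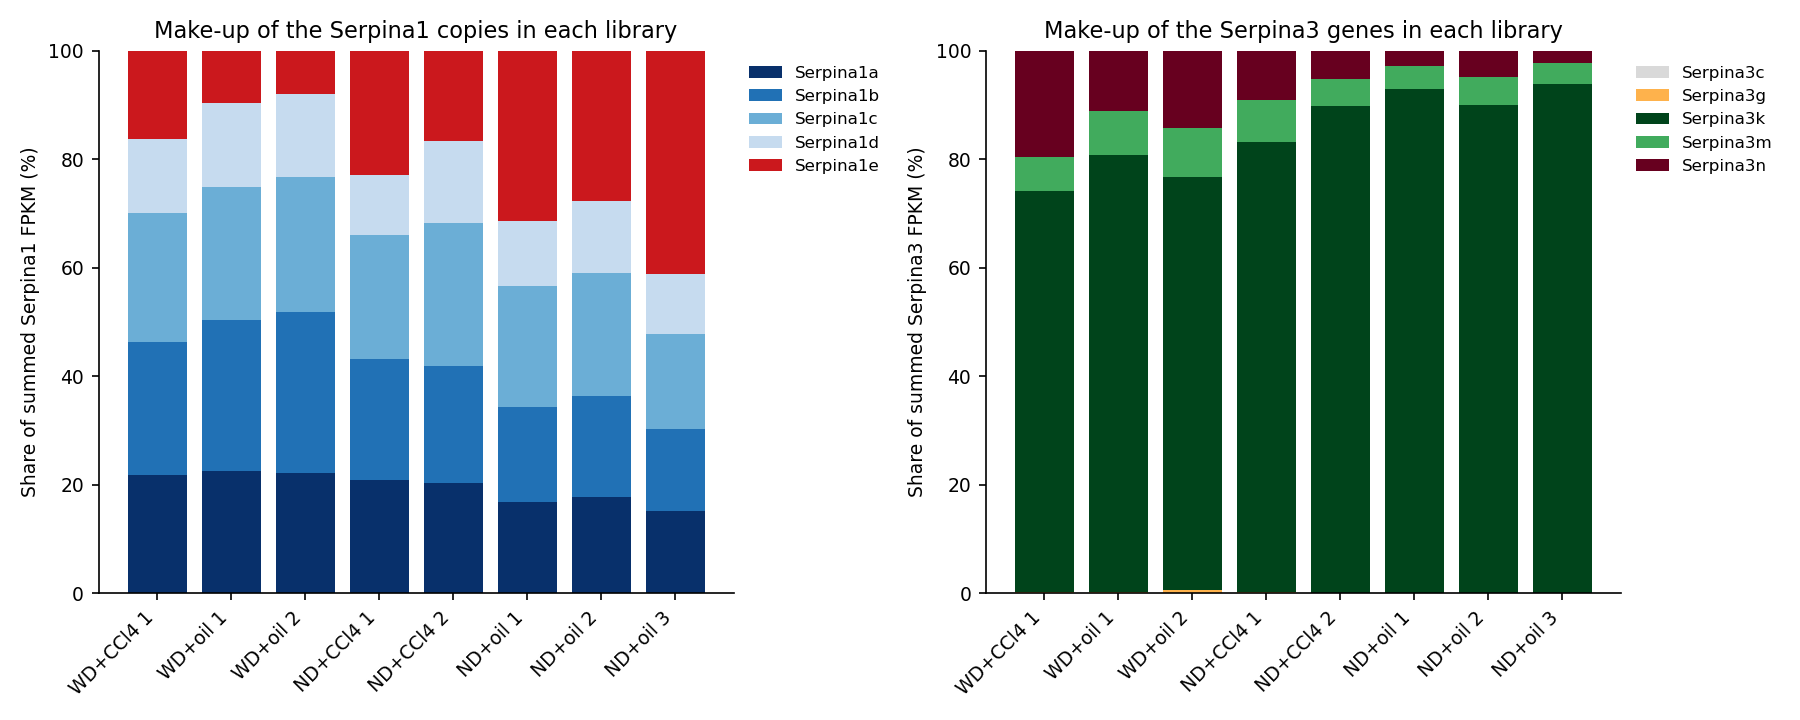
Share of each gene in the summed FPKM of its subfamily (vertical axis, percent) in each of the 8 libraries (horizontal axis, group and library number), with Serpina1 copies on the left and Serpina3 genes on the right. Serpina1e takes 8.04% to 9.69% with western diet + oil and 27.7% to 41.2% with normal diet + oil, and Serpina3n takes 19.6% with western diet + CCl4 and 2.33% to 4.83% with normal diet + oil.

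In the order of mean levels, neighbours were not always distinct. With western diet + oil the order was Serpina1b, Serpina1c, Serpina1a, Serpina1d, Serpina3k, Serpina1e, Serpina3n, Serpina3m and Serpina3g, and only Serpina1d and Serpina3k overlapped with each other. With normal diet + CCl4 the order was Serpina1c, Serpina1b, Serpina1a, Serpina1e, Serpina3k, Serpina1d, Serpina3n, Serpina3m and Serpina3g. Serpina1c overlapped there with Serpina1b, Serpina1a with Serpina1e, Serpina3k with Serpina1d, and Serpina3n with Serpina3m. With normal diet + oil the order was Serpina1e, Serpina1c, Serpina1b, Serpina1a, Serpina3k, Serpina1d, Serpina3m, Serpina3n and Serpina3g, where Serpina1a overlapped with Serpina3k and Serpina3m with Serpina3n.

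None of the 9 genes passed the test of whether CCl4 acted differently under the western diet, which 7 of all tested genes passed (0.0608%). At an unadjusted p below 0.05, 1 of 5 Serpina1 copies and 2 of 4 Serpina3 genes differed, against 9.78% of all tested genes. Serpina1e had the largest interaction of the 9, 2.20 ± 0.48 (limma adjusted p = 0.256). Between normal diet + CCl4 and western diet + oil no inhibitor passed (limma), where 0.617% of all tested genes did. At an unadjusted p below 0.05, 3 of 5 Serpina1 copies and 1 of 4 Serpina3 genes differed, against 11.1% of all tested genes. Serpina1e was 1.80 ± 0.31 higher with normal diet + CCl4 than with western diet + oil (limma adjusted p = 0.0574), and it passed without normal diet + oil library 3 (adjusted p = 0.0285).

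Promoter windows from RefSeq (GRCm38.p6, 250 bases before to 50 after the annotated start) were found for 8 of the 10 genes. They were searched on both strands for short motifs. Serpina3k and Serpina3m had no window and were not searched, so presence or absence of a motif there is unknown. GTTAAT, the core of the site bound by the hepatocyte factor HNF1, was present in all 5 Serpina1 windows and in that of Serpina3c, and in 7.10% of all 32851 promoter windows. A stretch of 70 bases that holds it and ends before the annotated start is shown because the 5 copies are nearly identical there although Serpina1e varied more than the others. The capitals mark the motif, and each line is the minus strand of GRCm38.p6.
Serpina1a, chr12:103863625-103863694: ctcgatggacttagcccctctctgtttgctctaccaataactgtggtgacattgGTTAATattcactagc
Serpina1b, chr12:103738200-103738269: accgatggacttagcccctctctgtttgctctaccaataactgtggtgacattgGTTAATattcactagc
Serpina1c, chr12:103904962-103905031: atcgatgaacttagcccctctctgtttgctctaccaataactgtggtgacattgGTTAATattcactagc
Serpina1d, chr12:103773634-103773703: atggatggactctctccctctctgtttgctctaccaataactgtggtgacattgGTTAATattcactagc
Serpina1e, chr12:103956960-103957029: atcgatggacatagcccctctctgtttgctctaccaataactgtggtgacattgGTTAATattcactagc

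In this stretch Serpina1e differed by 2 bases from Serpina1a, Serpina1b and Serpina1c and by 6 from Serpina1d. The motif began 78 bases before the annotated start in Serpina1e and 16 to 27 bases before it in the other copies. TTGCNNAA, a C/EBP-type motif found in 10.8% of all windows, was in those of Serpina1a, Serpina1b, Serpina1d and Serpina1e. GGG and TTCC with 3 bases between them, an NF-kB-type motif found in 5.56% of all windows, was in those of Serpina3g and Serpina3n. TTCNNNGAA, a STAT-type motif found in 8.30% of all windows, was in that of Serpina3g. TATAAA (13.6% of all windows) was in that of Serpina3c, and TTC and GAA with 4 bases between them (6.95%) and TGTTTAC (3.65%) were in none. A match of letters is a description and not a binding site. The 250 bases before the start are shown for Serpina3g and Serpina3n, both on the plus strand. The NF-kB-type motif, and in Serpina3g also the STAT-type motif, is in capitals.
Serpina3g, chr12:104235897-104236146: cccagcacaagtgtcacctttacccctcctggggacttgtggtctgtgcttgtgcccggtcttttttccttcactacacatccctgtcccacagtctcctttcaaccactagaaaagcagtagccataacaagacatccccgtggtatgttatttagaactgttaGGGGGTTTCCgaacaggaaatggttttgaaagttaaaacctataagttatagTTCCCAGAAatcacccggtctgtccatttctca
Serpina3n, chr12:104406458-104406707: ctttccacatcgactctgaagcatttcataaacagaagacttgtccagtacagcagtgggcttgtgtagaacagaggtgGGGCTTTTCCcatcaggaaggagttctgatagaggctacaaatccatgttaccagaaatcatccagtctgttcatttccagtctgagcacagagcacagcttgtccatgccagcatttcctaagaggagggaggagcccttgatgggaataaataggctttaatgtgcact

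Among 16 other serpins of clade A, the clade of these genes, 8 were tested. Serpina3f, a neighbour in the Serpina3 group, rose with western diet + oil (1.81 and 3.04 FPKM, against 0.462, 0.616 and 0.403 FPKM with normal diet + oil; log2 fold change 1.18 ± 0.23, limma adjusted p = 0.0365). Serpina12, or vaspin, fell to 5.59 and 3.26 FPKM with normal diet + CCl4, against 18.4, 16.9 and 18.03 FPKM with normal diet + oil (-1.82 ± 0.26, limma adjusted p = 0.0252). It was also lower there than with western diet + oil (-2.35 ± 0.29, limma adjusted p = 0.0191). Serpina10, the protein Z-dependent inhibitor of clotting factor Xa, rose to 125 FPKM with western diet + CCl4, against 43.8, 46.2 and 39.3 FPKM with normal diet + oil (1.52 ± 0.21, limma adjusted p = 0.0265). It was likewise above normal diet + CCl4 (1.67 ± 0.23, limma adjusted p = 0.0348). These were the only passing members of that list against normal diet + oil, 1 of 8 in each comparison, where 4.41% of all tested genes passed with western diet + oil, 1.42% with normal diet + CCl4 and 0.929% in the western diet + CCl4 library.

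Of 15 serpins of other clades 12 were tested, and 3 passed, all with western diet + oil against normal diet + oil, where 4.41% of all tested genes passed. Serpinh1, the collagen chaperone Hsp47, rose by 1.58 ± 0.33 (limma adjusted p = 0.0415) and Serpinb6a, an intracellular protease inhibitor, by 1.82 ± 0.40 (limma adjusted p = 0.0465). Serpine2, an inhibitor of thrombin and plasminogen activators named after its value was seen, fell by 1.46 ± 0.32 (limma adjusted p = 0.0467). Among 15 proteases that serpins can inhibit 8 were tested, and 2 passed in that comparison. Cela1, a chymotrypsin-like elastase, fell with western diet + oil (-1.51 ± 0.23, limma adjusted p = 0.0201), and the lysosomal cathepsin Ctsb rose (1.16 ± 0.25, limma adjusted p = 0.0467). None of the 8 passed in the other comparisons with normal diet + oil (limma), where an unadjusted p below 0.05 was found for 5 with western diet + CCl4, against 15.3% of all tested genes, and for 3 with normal diet + CCl4, against 22.8%.

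Genes linked to the growth hormone axis, many of them higher in male than in female mouse liver, included some that fell and none that rose. Of 20 tested, 3 fell with western diet + oil, where 0.599% of all tested genes fell. With normal diet + CCl4 4 fell, where 1.42% of all tested genes passed in either direction, and with western diet + CCl4 3 fell, where 0.929% passed. Slco1a1, an organic anion transporter, had 7.19 FPKM with western diet + CCl4, 21.2 and 14.4 FPKM with western diet + oil, 4.22 and 5.65 FPKM with normal diet + CCl4, and 59.6, 50.1 and 67.9 FPKM with normal diet + oil. Hsd3b5 (log2 fold change -4.30 with western diet + oil and -5.44 in the normal diet + CCl4 libraries) and Cyp7b1 (-2.36 in both), which act on steroids, passed in each of the 3 comparisons, and the elongase Elovl3 (-3.95) passed with normal diet + CCl4. Unlike these genes, Serpina1e passed with western diet + oil and not with normal diet + CCl4, and whether it differs from them was not tested. The Mup share, given above with the libraries, was highest in the 3 libraries with the most Serpina1e, which are the normal diet + oil group. Outside that group the order was reversed between 2 groups. Normal diet + CCl4 had less Mup (2.80% and 4.65%) than western diet + oil (9.16% and 10.04%). Its Serpina1e was higher, at 3942 and 3125 FPKM against 1110 and 913 FPKM.

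Of 13 tested genes of IL-6 and IL-1 signalling, Lifr, a receptor subunit for leukaemia inhibitory factor, was the one that passed against normal diet + oil. It fell with western diet + CCl4 (-2.43 ± 0.36, limma adjusted p = 0.0307) and with western diet + oil (-1.98 ± 0.29, limma adjusted p = 0.0193), where 0.929% and 4.41% of all tested genes passed in these comparisons. Gbp2, a guanylate-binding protein, was the 1 of 15 tested interferon gamma response genes that passed, with western diet + oil (1.45 ± 0.32, limma adjusted p = 0.0473), a share near the 4.41% of all tested genes. No liver transcription factor (13 tested) and no gene of ER folding, export and disposal (20 tested) passed against normal diet + oil (limma). At an unadjusted p below 0.05, 3 of the 13 transcription factors differed with normal diet + CCl4, near the 22.8% of all tested genes, and 0 in the other comparisons. Of the 20 ER genes 1 differed with western diet + oil, below the 23.3% of all tested genes, 1 with normal diet + CCl4 (22.8%) and none under western diet + CCl4 (15.3%).

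Likeness of pattern was measured as the root-mean-square difference between centred log2(FPKM + 1) values over the 8 libraries, among 9915 tested genes, where 0 means the same profile. Idi1 (0.44), Lifr (0.51) and Cyp51 (0.54) were nearest to Serpina1e, whose own root-mean-square deviation from its mean was 1.18. For Serpina3n (0.79) they were Casp4 (0.20), Steap4 (0.23) and Ifitm6 (0.24). For Serpina3g (0.89) they were Ntrk2 (0.10), Ifi30 (0.13) and Aif1 (0.14), and for Serpina3k (0.48) C8b (0.19), Mvk (0.22) and Lrit2 (0.23). Mvk (0.12), Hsd17b7 (0.16) and Ttc39c (0.18) were nearest to the Serpina1 sum (0.43), and Lrit2 (0.20), Mvk (0.21) and Aadat (0.23) to the Serpina3 sum (0.39). Mvk had 7.18 FPKM with western diet + CCl4, 5.64 and 5.72 FPKM with western diet + oil, 8.47 and 9.27 FPKM with normal diet + CCl4, and 10.05, 12.2 and 11.9 FPKM with normal diet + oil. Some of the genes named as nearest were at very low levels. Lrit2 had 0.318 to 1.42 FPKM. Ntrk2 was at 0 in every normal diet + oil library, Ifitm6 in libraries 1 and 3 of that group and Casp4 in library 1. For such values the likeness depends on the 1 added before the log2.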

How the data were processed

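RNA was extracted from liver with NucleoZol and sequenced after TruSeq Stranded mRNA preparation, per the labels' protocols. The authors deposited FPKM values for 55487 genes in 8 libraries. Per the submitters' processing notes, the tools were HISAT2 2.2.1, StringTie 2.1.0, cutadapt 3.7 and FastQC 0.11.9 and the build was GRCm38. The sources used here do not give what each tool did. Of the gene IDs 55394 matched GENCODE M21, and 38952 genes were at 0 in all libraries. No pair of libraries held identical values across the table.

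From FPKM, log2(FPKM + 1) was modelled in R 4.3.3 by limma 3.58.1 (eBayes with trend, 1 mean per group, 4 residual, 3.93 prior and 7.93 total degrees of freedom), for 7 contrasts. The script was tested on simulated data. Same-numbered libraries did not deviate together, a weak check with so few libraries, and numbers were not used as a block in the main fit. Alternatives, 18 in all, were pseudocount 0.1, no filter, mean FPKM of at least 5, 3 scalings, robust eBayes, replicate block, each library left out, only the groups compared, and unadjusted p below 0.05 with a 2-fold change. Coding sequences came from the GENCODE M21 transcripts and were aligned with MAFFT. Promoter windows came from RefSeq (GRCm38.p6). Sequences were handled with Python 3.11.15.

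The members, the 9 pathway lists and the 10 marker lists were chosen with earlier results of these data known. Named beside the members were, in each list, up to 2 passing genes with the smallest p in each contrast against normal diet + oil, up to 2 further passing in other contrasts, and the 3 genes nearest in pattern to 4 members and both sums.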

Additional observations from a re-analysis of the deposited data

Results flagged for a closer look

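For 3 genes the effect of CCl4 pointed in opposite directions under the 2 diets, with no overlap between libraries in either comparison. The test of that difference did not pass. The share of all tested genes that did the same was not counted, so the number 3 is only a description. Serpina1e had a log2 fold change of 1.08 with western diet + CCl4 against western diet + oil, but -1.12 in normal diet + CCl4 against normal diet + oil (limma interaction adjusted p = 0.256). Serpina3k had 0.57 with western diet + CCl4 against western diet + oil, but -0.58 in normal diet + CCl4 against normal diet + oil (limma interaction adjusted p = 0.475). Serpina3g had -0.47 with western diet + CCl4 against western diet + oil, but 1.09 in normal diet + CCl4 against normal diet + oil (limma interaction adjusted p = 0.444). Its western diet + CCl4 library (6.40 FPKM) was only just below western diet + oil library 1 (6.54 FPKM). The first value of each pair rests on 1 western diet + CCl4 library. No group had the 4 libraries needed to look for a single library standing apart.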

How the results depend on the processing

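Of 1082 values of members under alternatives, 1008 kept their direction and side of the threshold, 25 lost the call, 22 gained it and 27 turned sign. The fits of only the groups compared were added for single members after seeing the data. With western diet + oil against normal diet + oil 3 members passed, against 1 with no filter and 1 with the replicate block. Leaving out libraries gave 0 to 4. With western diet + CCl4 against normal diet + oil 1 passed, against 0 with no filter, 0 with the replicate block, 0 with only the groups compared and 3 at an unadjusted p below 0.05 with a 2-fold change. Leaving out libraries gave 0 to 2. That unadjusted rule gave 2 with normal diet + CCl4 against normal diet + oil, 2 with western diet + CCl4 against western diet + oil, 1 with western diet + CCl4 against normal diet + CCl4, 1 with normal diet + CCl4 against western diet + oil and 3 for the interaction, where 0 passed otherwise. Leaving out libraries gave 0 to 1 with normal diet + CCl4 against normal diet + oil and 0 to 1 with normal diet + CCl4 against western diet + oil, where a mean FPKM of at least 5 and a common sum each gave 1. Among the alternatives with an adjusted p, Serpina1e with western diet + oil passed in 15 of 17 fits (adjusted p 0.00477 to 0.117), Serpina3k in 8 of 17 (0.0264 to 0.309) and Serpina3g in 9 of 16 (0.00775 to 0.201), its mean being below 5 FPKM. Serpina3n with western diet + CCl4 passed in 9 of 16 (0.0177 to 0.146), since its 1 library cannot be left out. The replicate block, which leaves normal diet + oil library 3 without a partner, lost the calls of Serpina3g (adjusted p = 0.114), Serpina3k (adjusted p = 0.215) and Serpina3n (adjusted p = 0.146) and kept that of Serpina1e. Same-numbered libraries correlated at -0.28 to -0.01 in their deviations. In groups of 2 libraries the deviations from the group mean mirror each other, so few of these correlations are independent. They cannot settle whether the numbers mark pairs. With no filter Serpina3g had an adjusted p of 0.0620 and Serpina3n of 0.0555. Serpina1c with western diet + oil passed without the Mup family (adjusted p = 0.0443) and Serpina3n with a common sum (adjusted p = 0.0426). The cause was not tested.

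The values that turned sign belonged to members that did not pass. With western diet + oil against normal diet + oil, Serpina3m (0.07) was -0.199 under median-of-ratios scaling, -0.0768 without the Mup family and -0.105 to 0.246 with libraries left out. With normal diet + CCl4 against normal diet + oil, Serpina1a was 0.147, Serpina1c 0.0748 and Serpina3m 0.193 with a common sum. Serpina1b was -0.328 under median-of-ratios scaling, -0.146 without the Mup family and -0.00647 with the replicate block, and Serpina3m was 0.0298 with the replicate block. Leaving out libraries gave -0.0328 to 0.0391 for Serpina1b, -0.293 to 0.0544 for Serpina1c, -0.548 to 0.0161 for Serpina1d and -0.154 to 0.153 for Serpina3m there. With western diet + CCl4 against western diet + oil, Serpina1d was -0.00293 without the Mup family and -0.00771 to 0.0187 with libraries left out. With western diet + CCl4 against normal diet + CCl4, Serpina3k was -0.0645 with a common sum and -0.224 to 0.248 with libraries left out. With normal diet + CCl4 against western diet + oil, Serpina3m was 0.0189 with a common sum and -0.246 to 0.105 with libraries left out. For the interaction, Serpina1b was 0.322 under median-of-ratios scaling and 0.0910 without the Mup family, and Serpina1d was -0.0107 to 0.554 with libraries left out.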
